A study of Mus musculus with 2 samples.

Results

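Aldo-keto reductases are soluble enzymes that use NADPH to reduce aldehydes and ketones to alcohols. In the adrenal cortex they meet reactive aldehydes, among them the isocaproaldehyde released when the cholesterol side chain is cleaved, and steroids whose activity they can change. The 10 genes described here were Akr1a1, Akr1b3, Akr1b7, Akr1b8, Akr1b10, Akr1c12, Akr1c13, Akr1c14, Akr1c18 and Akr7a5. They were chosen by name as aldo-keto reductase genes out of 55536 annotated genes, with earlier results of these data known. The choice is not the whole superfamily, and each of the 10 matched 1 gene identifier. Akr1b7 led the 10 at 797 ± 155 TPM (length-normalised transcript abundance, mean ± SD, n = 2 libraries), while the X-zone gene Akr1c18 was near 0.

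The study measured total RNA of whole adrenal glands from male adults, 8 to 10 months old, whose strain is given as 5xFAD crossed with CAST. 5xFAD mice carry human amyloid-related transgenes under a neuronal promoter, CAST is a wild-derived strain, and the labels do not give the transgene status of each animal. Both libraries belonged to this 1 group, biological replicates 1 and 2, with separate biosamples but 1 donor entry, so it is not known whether their spread is that between animals. No treatment, second genotype or other tissue was analysed here, and the mm10 reference does not carry the CAST alleles. Annotated genes held 29204658 counts in replicate 1 and 26322473 in replicate 2. The gland's own markers were high: the 5 cortical steroid cell markers summed to 14896 and 15082 TPM and the 5 chromaffin cell markers to 1346 and 1561 TPM. None of 4 liver markers, none of 5 kidney markers and 1 of 5 epithelial markers, Vil1, reached 1 TPM in both libraries. With 1 group of 2 libraries there was no test to run, since a sign-flip over 2 values cannot give a two-sided p below 0.5, and all values are descriptions.

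The members lie at 4 places in the genome (mm10, GENCODE M21). Akr1b3 (chromosome 6, 34302434 to 34317478, minus strand), Akr1b8 (34354119 to 34368463, plus), Akr1b10 (34384218 to 34396950, plus) and Akr1b7 (34412334 to 34423142, plus) form a cluster of 121 kb on chromosome 6. Akr1c14 (4049011 to 4090688, plus), Akr1c18 (4132615 to 4150654, minus), Akr1c13 (4191150 to 4205596, plus) and Akr1c12 (4268176 to 4279433, minus) lie within 230 kb on chromosome 13. Akr1a1 (116636510 to 116651680, minus) and Akr7a5 (139310744 to 139318426, plus) are single genes on chromosome 4. All 10 are protein-coding genes.

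The start of the coding sequence shows how alike the chromosome 6 paralogs are, which bears on how well reads can be told apart. The first 75 coding bases of the GENCODE M21 transcripts follow, with capitals where a base differs from Akr1b7.

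Akr1b7: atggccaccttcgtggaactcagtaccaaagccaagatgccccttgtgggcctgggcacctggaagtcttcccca
Akr1b8: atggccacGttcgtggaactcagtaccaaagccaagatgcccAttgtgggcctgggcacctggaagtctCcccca
Akr1b10: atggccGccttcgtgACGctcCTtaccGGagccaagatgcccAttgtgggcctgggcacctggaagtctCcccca
Akr1b3: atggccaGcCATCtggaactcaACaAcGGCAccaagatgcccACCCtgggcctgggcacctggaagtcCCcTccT

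Akr1b8 differed from Akr1b7 at 3 of these bases, Akr1b10 at 10 and Akr1b3 at 20. Over the whole coding sequence the order was another one: Akr1b10 was 89.2% identical to Akr1b7, Akr1b8 84.8% and Akr1b3 72.0%, and all have 316 codons before the stop. No stretch of 100 bases of Akr1b7, Akr1b8 or Akr1b10 occurred in a transcript of any other gene. At 31 bases, 126 of 1251 stretches of Akr1b7 (10.1%), 139 of 1467 of Akr1b8 (9.48%) and 200 of 3554 of Akr1b10 (5.63%) did. Stretches were pooled over all annotated transcripts, 1 for Akr1b7, 2 for Akr1b8 and 6 for Akr1b10. The percentages are therefore not comparable between genes, and Akr1b10 had the most shared stretches. Akr1b7 shared 88 of its 31-base stretches with Akr1b10 and 41 with Akr1b8. In the chromosome 13 cluster, Akr1c12 and Akr1c13 were 96.2% identical over 323 codons and shared an exact run of 228 coding bases. Their first 75 coding bases, with Akr1c18 for comparison and capitals where a base differs from Akr1c13, show the closeness.

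Akr1c13: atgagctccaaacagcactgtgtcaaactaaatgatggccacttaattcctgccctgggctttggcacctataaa
Akr1c12: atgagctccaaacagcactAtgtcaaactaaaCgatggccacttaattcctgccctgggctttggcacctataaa
Akr1c18: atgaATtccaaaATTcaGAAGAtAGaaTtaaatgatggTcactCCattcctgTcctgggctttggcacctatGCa

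Here Akr1c12 differed from Akr1c13 at 2 bases and Akr1c18 at 19. Among all 45 pairs of members the coding identity ran from 40.9% to 96.2%, with a median of 54.8%.

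With a limit of 1 TPM that each library had to reach, 7 of the 10 members counted as detected, beside 25.5% of all annotated genes and 56.2% of protein-coding ones. The members summed to 1425 TPM in replicate 1 and 1237 TPM in replicate 2. Akr1b7 made up 63.6% and 55.6% of these sums and Akr1a1 18.9% and 23.0%. The 4 genes of the chromosome 6 cluster together held 1133 and 928 TPM, and the 4 Akr1c members 1.76 and 1.38 TPM.

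**Figure D1:**
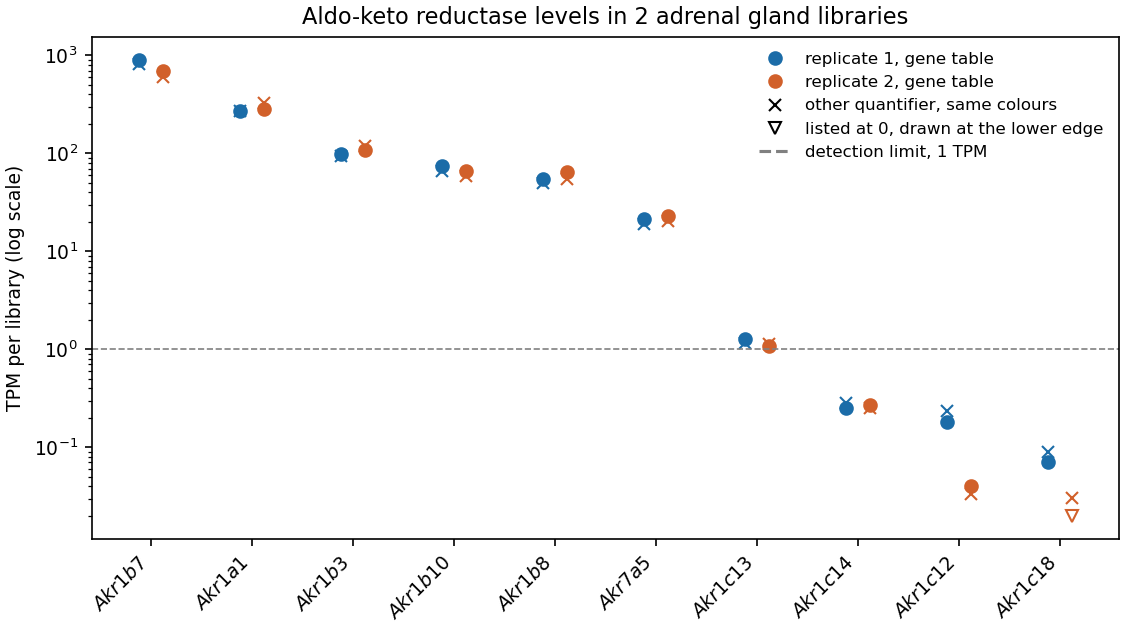
TPM of the 10 members in each library on a log axis, with filled points for the gene tables and crosses for the other quantifier. Akr1b7 stands at 906 and 688 TPM, 6 members lie above 20 TPM, Akr1c13 sits at the detection limit of 1 TPM, and 3 Akr1c genes lie below it.

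Akr1b7 encodes an aldose reductase-like enzyme that clears isocaproaldehyde and is known in the mouse adrenal as a gene driven by corticotropin and cyclic AMP. It was at 906 TPM in replicate 1 and 688 TPM in replicate 2, from 30661 and 20775 expected counts. It ranked 25 among 22028 protein-coding genes by mean TPM. Both TPM values lay above their own deposited intervals, 874 to 894 and 660 to 678 TPM, since these do not centre on the printed TPM. Replicate 1 was the higher library, and even the lower value was above every other member. Akr1b7 stood at 0.316 and 0.250 times the TPM of Cyp11a1, the side-chain cleavage enzyme gene that yields its substrate. The detected protein-coding genes nearest to Akr1b7 in log2(TPM + 1) over both libraries were Tsc22d1, Fdxr and Tpt1, at distances of 0.13, 0.31 and 0.31. A pattern over 2 libraries holds little more than the level, so this likeness is mainly one of abundance.

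Akr1a1 encodes aldehyde reductase, which turns glucuronate into gulonate on the way to ascorbate. It was the next member, at 269 and 285 TPM, rank 122 among protein-coding genes. The libraries lay close together, and Akr1b7 was 3.37 times as high in replicate 1 and 2.41 times in replicate 2. Ugdh, which supplies UDP-glucuronate, was at 22.1 and 20.3 TPM.

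Akr1b3 encodes aldose reductase, which reduces glucose to sorbitol. It was at 98.0 and 109 TPM, and Sord, which oxidises sorbitol to fructose, was at 48.3 and 48.7 TPM. Akr1b10, the closest paralog of Akr1b7, was at 74.1 and 66.4 TPM. Akr1b8, another aldose reductase-like gene, was at 54.4 and 64.4 TPM. Both remained below Akr1b7 by a wide margin, 12.2 and 10.3 times for Akr1b10 and 16.7 and 10.7 times for Akr1b8 in replicates 1 and 2. Akr1b10 was above Akr1b8 in each library, but in replicate 2 their deposited TPM intervals, 62.0 to 67.9 and 60.1 to 65.5, overlapped, so that step of the order is uncertain. Akr7a5, a reductase of aflatoxin aldehyde and succinic semialdehyde, was at 21.2 and 22.8 TPM. At the other steps down to Akr1c13 the ranges of neighbours over the libraries did not overlap, in either quantifier.

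The Akr1c members were near or under the limit. Akr1c13 was at 1.26 and 1.07 TPM from 40.1 and 31.9 expected counts, and lay above 0.525% of the detected protein-coding genes. Akr1c14, a 3-alpha-hydroxysteroid dehydrogenase gene, was at 0.250 and 0.270 TPM from 18 and 14 counts. Akr1c12 was at 0.180 and 0.0400 TPM from 5.90 and 1.06 counts. In replicate 1 the deposited intervals of Akr1c14 and Akr1c12, 0.180 to 0.628 and 0.0585 to 0.365 TPM, overlapped, so their order is not set. Akr1c18, the 20-alpha-hydroxysteroid dehydrogenase gene that marks the X-zone, a transient inner layer of the mouse cortex, had 2 counts in replicate 1 and 0 in replicate 2. For replicate 2 the limit that a count of 0 allows, 3 counts per library, would be 0.112 TPM. The upper ends of the deposited intervals were 0.258 and 0.172 TPM, still below 1 TPM. The other X-zone gene examined, Pik3c2g, was at 0 and 0.02 TPM. In bulk tissue, fewer cells of a type and less RNA per cell cannot be told apart.

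**Figure D2:**
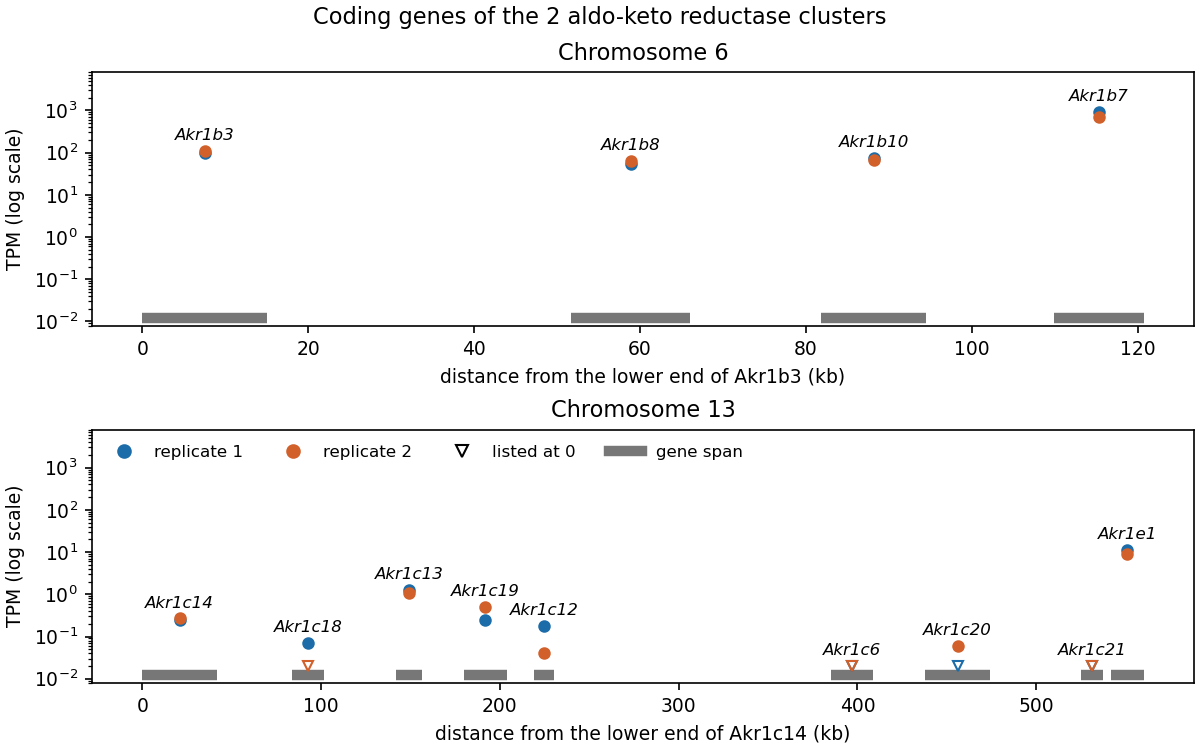
Coding genes of the chromosome 6 and chromosome 13 clusters, drawn as grey spans by distance in kb from the lower end of Akr1b3 or Akr1c14, with each library's TPM above on a log axis. The 4 chromosome 6 genes lie between 54.4 and 906 TPM, while on chromosome 13 only Akr1e1 and Akr1c13 reach 1 TPM in both libraries.

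The stretch before the start was compared for the 3 neighbouring genes Akr1b7, Akr1b8 and Akr1b10, since they lie side by side and Akr1b7 is over 10-fold above the other two. RefSeq promoters (GRCm38.p6) matched 9 of the 10 members. The 250 bases before the RefSeq start are given 5′ to 3′ on the plus strand, at chr6:34412112-34412361, chr6:34353896-34354145 and chr6:34383997-34384246 in that order. For these genes the RefSeq start lies slightly downstream of the GENCODE gene start. Capitals mark the matches of the nuclear receptor motif and of the letters TATAAA.

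Akr1b7: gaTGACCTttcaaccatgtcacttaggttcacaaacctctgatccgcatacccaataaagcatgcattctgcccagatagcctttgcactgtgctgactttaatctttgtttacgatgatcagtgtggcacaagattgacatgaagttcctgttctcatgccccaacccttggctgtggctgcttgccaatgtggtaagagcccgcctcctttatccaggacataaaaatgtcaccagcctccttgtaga
Akr1b8: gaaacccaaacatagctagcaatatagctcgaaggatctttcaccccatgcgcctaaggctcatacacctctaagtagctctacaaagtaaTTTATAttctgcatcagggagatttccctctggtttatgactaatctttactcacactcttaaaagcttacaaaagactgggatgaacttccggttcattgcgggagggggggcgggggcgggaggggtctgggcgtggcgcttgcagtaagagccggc
Akr1b10: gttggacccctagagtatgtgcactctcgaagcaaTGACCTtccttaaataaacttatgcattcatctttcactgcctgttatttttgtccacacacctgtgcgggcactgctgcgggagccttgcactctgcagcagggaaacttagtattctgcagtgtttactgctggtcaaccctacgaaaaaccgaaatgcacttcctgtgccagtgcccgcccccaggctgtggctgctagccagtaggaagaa

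Motifs were searched on both strands: AGGTCA for nuclear receptors, CAAGGTC for SF-1, TGACGTCA for the cAMP response element, TGACG for its short form, TGACNNNGC for the antioxidant response core, CCAAT for the CCAAT box, then TATAAA for the TATA box. The nuclear receptor and SF-1 motifs can overlap, and the short cAMP form lies within the long one. The nuclear receptor motif occurred on the minus strand in Akr1b7, 248 to 243 bases before the start, and in Akr1b10, 215 to 210 bases before it, and 14.0% of 32851 promoters of that length hold it. Akr1b7 also had the CCAAT box at 199 to 195 and at 64 to 60 bases before the start, a motif found in 33.8% of promoters. Akr1b8 had the letters TATAAA on the minus strand, 159 to 154 bases before the start, and 12.4% of promoters hold them on either strand. Such a match of letters, at any place in the window, does not show a working TATA box. The SF-1, long cAMP, short cAMP and antioxidant motifs, held by 3.32%, 1.55%, 17.8% and 10.2% of promoters, had no match in these 3 windows. Aligned end to end, the windows of Akr1b7 and Akr1b10 were 45.7% identical, those of Akr1b7 and Akr1b8 45.3%. Among the 36 pairs of members the median was 41.2%, and the highest, 92.5%, was that of Akr1c12 and Akr1c13. Such an alignment can miss likeness that lies at different distances from the start. The stretch ggctgtggctgct, for example, is in both Akr1b7 and Akr1b10 but nearer the start in Akr1b10. Values near the median therefore do not show that 2 windows are unlike.

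Spread between the libraries was taken as the log2 ratio of replicate 2 to replicate 1 on TMM-scaled counts, for the 7 members whose counts averaged 20 or more. None passed 1.5-fold, beside 6.71% of the 16383 genes with as many counts. Of the 7 members 4 were higher in replicate 2 and 3 lower, with a median of 0.05, where all genes had -0.006. Errors are counting SE only, since each ratio has 1 library on either side. They treat reads as independent molecules, which reads are not, so they understate the error.

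Akr1b7 was the member that differed most, at -0.42 ± 0.013, or 1.34-fold lower in replicate 2. Across all 16383 genes 12.9% differed by more, and among 5027 protein-coding genes averaging 1000 counts or more, a limit chosen after the value was seen, 1.89% did. Akr1b10, its neighbour, was at -0.17 ± 0.043. Akr1b8, which lies on the far side of Akr1b10, went the other way at 0.23 ± 0.046, and Akr1b3 was at 0.13 ± 0.038. The cluster therefore held members of either direction. Akr7a5 was at 0.11 ± 0.078, Akr1a1 at 0.05 ± 0.021 and Akr1c13 at -0.18 ± 0.34, an interval that spans 0.

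**Figure D3:**
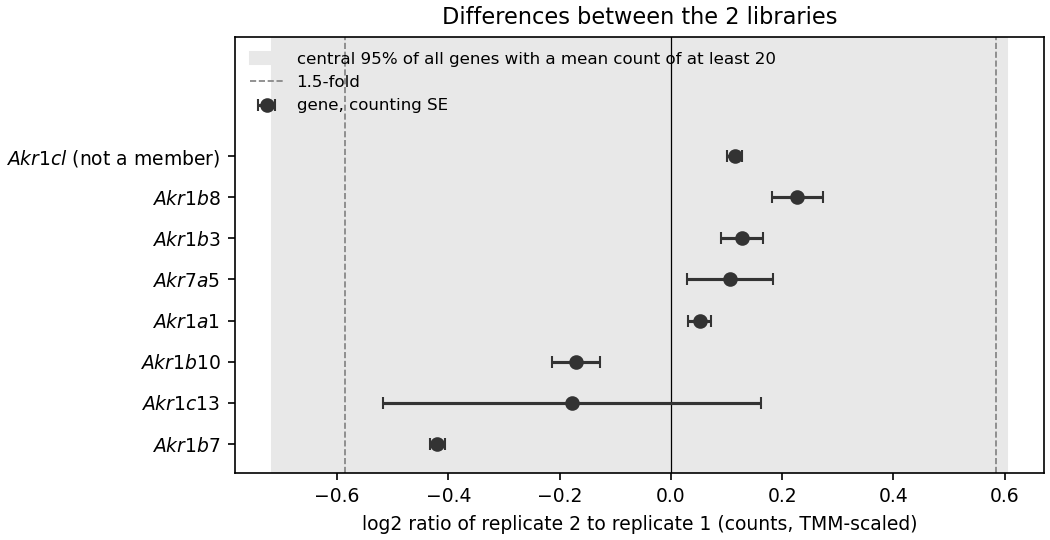
Log2 ratio of replicate 2 to replicate 1 for the 7 members with enough counts and for Akr1cl, with counting SE as bars. Akr1b7 at -0.42 lies farthest from 0, and every point is inside the grey band, the central 95% of all genes from -0.72 to 0.60.

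Markers of other cells went in different directions between the libraries. All 6 white adipocyte markers were lower in replicate 2, with a median log2 ratio of -0.86 and a sum of 701 TPM against 419 TPM. Of 5 macrophage markers 3 were lower, with a median of -0.53 and sums of 210 and 138 TPM. Lyz2, at 146 and 81.4 TPM, made up most of these sums, while Csf1r at 0.14 and C1qa at 0.03 were slightly higher. None of the 6 adipocyte or the 5 macrophage markers was at 0 TPM. All 5 chromaffin markers were higher, with a median of 0.17. The 4 endothelial markers had a median of -0.05 and the 5 capsule fibroblast markers one of 0.09. No marker of these last 3 cell types passed 1.5-fold. The 5 cortical markers had a median of 0.007 and the corticotropin receptor gene Mc2r was at 0.05 ± 0.034, while Nr5a1, the SF-1 gene, was at 0.21 ± 0.020. The part of these cells in the difference of Akr1b7 was not tested.

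Paralogs were checked with the other quantifier, whose transcript values were summed per gene. It gave Akr1b7 819 and 605 TPM, Akr1a1 272 and 326, Akr1b3 94.3 and 119, Akr1b10 65.6 and 58.5, Akr1b8 49.5 and 55.2, and Akr7a5 19.2 and 20.4. The order of these members was the same. None of the 7 members at 1 TPM or more differed by 1.5-fold between quantifiers, beside 13.4% of 15872 genes at that level, and their mean log2 differences ran from -0.18 to 0.10. Akr1c18 was at 0.0895 and 0.0305 TPM there.

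The deposited posterior SD of a count reflects how uncertain the assignment of reads to a gene was. It was 2.59 and 2.43 counts for Akr1b7, which is 0.00845% and 0.0117% of its posterior mean count, and 0 for Akr1a1, Akr1c14, Akr1c18 and Akr7a5. An SD of 0 does not mean that no sequence is shared. Akr1c14 had 135 stretches of 100 bases in common with the pseudogene Gm18857, which had 0 counts in both libraries. Akr1c18 had only 2 and 0 counts to assign. Akr1c12 and Akr1c13 had the same SD as each other, 0.950 in replicate 1 and 0.320 in replicate 2, and for Akr1c12 this was 15.8% and 28.8% of the deposited posterior mean count. They shared 134 stretches of 100 bases with each other and none with another gene, so their split is uncertain. The uncertainty weighs less on Akr1c13, for which the SD was 2.4% and 1.0% of the posterior mean count.

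Akr1b3 had the largest SD of the members, at 24.8 and 25.4 counts. Pooled over its 6 annotated transcripts, 652 of 8860 stretches of 100 bases (7.36%) occurred in other genes, all of them annotated processed pseudogenes. The pool includes retained-intron transcripts of 3254 and 5024 bases, while the coding transcript Akr1b3-201 has 1387 bases. The share for Akr1b3-201 alone was not computed and can be much higher. Gm12138 (chromosome 11, 40672906 to 40673856) was listed at 37.0 and 39.7 TPM and Gm6736 (chromosome 12, 13455023 to 13455970) at 16.6 and 18.3 TPM, while Gm6644 (chromosome 1, 55444074 to 55445024) was at 0 and 0.0700 TPM. In the other quantifier Gm12138 was at 19.7 and 21.4 TPM. Whether these entries hold reads of Akr1b3 was not tested, and its level is uncertain to that extent. The antisense entry Gm14546, which overlaps Akr1b3, had 0 counts in both libraries, and Gm13857, a pseudogene entry on the opposite strand from Akr1b7, had 3 and 0.

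Transcript makeup differed between members. Akr1b7 has 1 annotated transcript, Akr1b7-201 of 1281 bases. Akr1b8 was carried by its coding transcript, with 99.0% and 99.7% of TPM, and Akr7a5 by its own with 92.6% and 96.0%. In contrast, coding transcripts made up 56.0% and 60.3% of the TPM of Akr1b3, and the rest fell to transcripts with retained introns. Of the 4 annotated ones Akr1b3-202 was at 0 in both libraries, and Akr1b3-204 alone, 554 bases long, was at 39.9 and 41.2 TPM. TPM is scaled by length, so short transcripts weigh more in it than in counts. Of the expected counts of Akr1b3, coding transcripts held 69.6% and 75.5%. Counting coding transcripts only, Akr1b3 was at 54.9 and 66.1 TPM, next to Akr1b8 at 53.9 and 64.2 TPM and Akr1b10 at 51.2 and 41.8 TPM. On this measure the ranges of Akr1b3 and Akr1b8 overlapped, and Akr1b10 lay below both.

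Akr1b10 had 69.1% and 62.9% of its TPM in coding transcripts, and the transcript annotated for nonsense-mediated decay, Akr1b10-203, was listed at 7.89% and 17.7% of the gene. The other quantifier gave this transcript 3.18 and 4.12 TPM, against 5.85 and 11.8 TPM, so the increase in replicate 2 was smaller there. For Akr1a1 the coding transcript Akr1a1-201 was at 239 and 252 TPM, and 207 and 206 TPM in the other quantifier. The short noncoding transcript Akr1a1-202 of 412 bases was at 26.0 and 29.9 TPM, but at 43.3 and 88.3 TPM in the other quantifier. The short coding transcript Akr1a1-204 was at 0.77 and 0 TPM, but at 18.5 and 28.1 TPM there. The other quantifier thus placed more of Akr1a1 in short transcripts and less in Akr1a1-201.

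**Figure D4:**
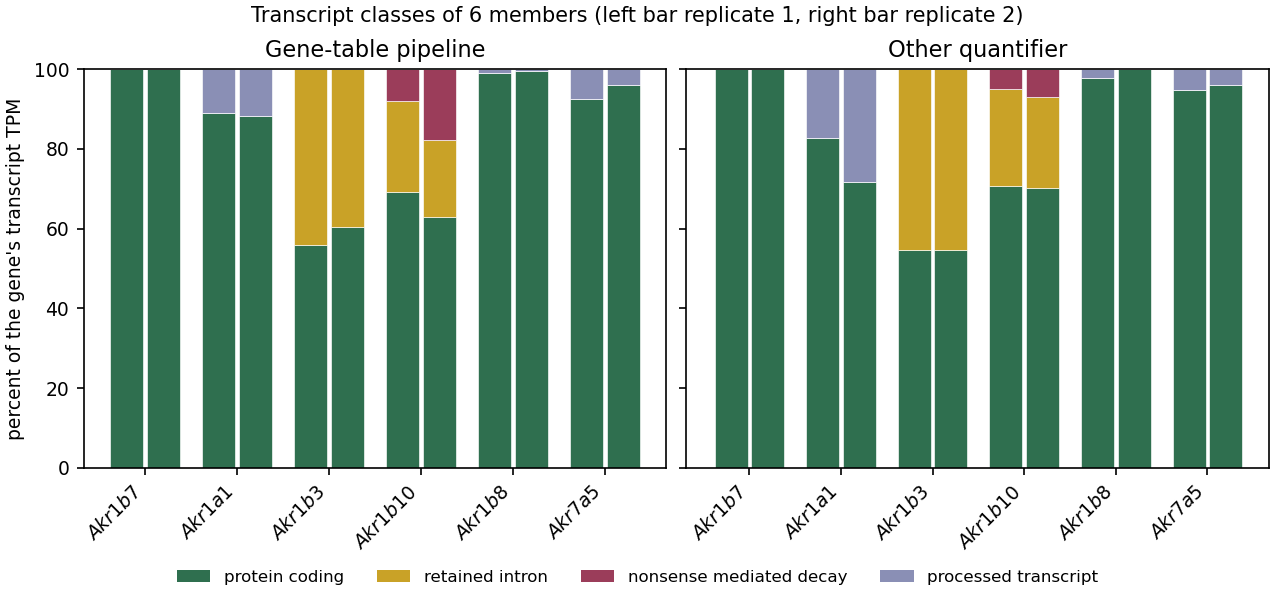
Percent of each gene's transcript TPM by annotated transcript class for 6 members, with replicate 1 as the left and replicate 2 as the right bar, and 1 panel per quantifier. Akr1b7 is all protein coding, Akr1b3 has 44.0% and 39.7% in retained introns in the gene-table pipeline, and the bars of Akr1a1 differ most between the panels.

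The rest of the superfamily was measured from a list of 10 other genes, of which 5 were detected. Akr1cl (chromosome 1, 65012689 to 65032759, minus strand), annotated as an Akr1c-like gene outside the clusters, was at 518 and 576 TPM, rank 44 among protein-coding genes. It was above Akr1a1 in both libraries, and Akr1b7 was 1.75 and 1.19 times as high. These values include noncoding transcripts of Akr1cl, while Akr1b7 has only a coding one. Coding transcripts made up 78.9% and 76.3% of Akr1cl, at 409 and 439 TPM, and 69.9% and 67.0% in the other quantifier. Of the summed TPM of all 20 genes Akr1cl held 26.4% and 31.4%. Its posterior SD was 0, no stretch of 100 bases occurred in another gene, and the other quantifier gave 520 and 556 TPM. Among the 10 members its coding sequence was closest to Akr1c18, at 77.5% identity. In counts it went slightly up where Akr1b7 went down, at 0.11 ± 0.014.

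Akr1e1, at the end of the chromosome 13 cluster, was at 11.1 and 8.84 TPM. The potassium channel beta subunit genes Kcnab3, Kcnab2 and Kcnab1 were at 7.16 and 6.08, 2.89 and 2.82, and 1.15 and 1.06 TPM. Not detected were Akr1c19 at 0.240 and 0.510 TPM, Akr1d1, the steroid 5-beta-reductase gene, at 0.200 and 0.390 TPM, and Akr1c20 at 0 and 0.0600 TPM. Akr1c6 and Akr1c21 had 0 counts in both libraries, where 3 counts would be 0.167 and 0.187 TPM for Akr1c6 and 0.109 and 0.122 TPM for Akr1c21. The upper ends of their deposited intervals were higher, at 0.705 and 0.777 TPM for Akr1c6 and at 0.261 and 0.288 TPM for Akr1c21.

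Genes that act beside the members were taken from lists. Of 10 steroid substrate enzyme genes 9 were detected. All 8 genes of corticotropin and SF-1 control were detected, led by Nr5a1 at 126 and 147 TPM, Prkar1a, a protein kinase A subunit gene, at 127 and 128 TPM and Mc2r at 84.8 and 89.4 TPM. Akr1b3 and Akr1b7 can also make prostaglandin F. Of 15 matched prostaglandin genes 13 were detected, and Ptges3, Ptgr2 and Ptgis led at 43.2 and 43.6, 21.2 and 20.5, and 16.8 and 17.3 TPM.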

How the data were processed

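The authors deposited gene tables of expected counts, TPM and FPKM, which rest on reads aligned to the transcriptome (mm10, GENCODE M21), per the notes deposited with the files. Libraries were strand-specific, reduced of ribosomal RNA and made from 300 ng of RNA, per the labels. The deposited transcript tables gave each transcript's TPM and percent of its gene, and a further deposited table, the other quantifier, held estimated counts and TPM computed from the reads without those alignments. The deposited posterior SD and TPM bounds, a signal per the file headers, were used as they stand. The intervals do not centre on the printed TPM, and the level of the interval was not stated. Names of the aligner and quantifier: not given in the sources used here.

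Symbols were matched through the transcript identifiers. The tables held 81881 features, and entries outside the 55536 annotated genes, 0.469% and 0.504% of counts, were left out. Ratios used rounded expected counts, TMM in edgeR 4.0.16 (R 4.3.3) and a prior count of 0.5, with DESeq2 1.42.0 size factors as an alternative, and log2 differences between quantifiers had 0.1 TPM added to each value as a pseudocount. Ratios were checked on simulated data. Identity came from global alignments in Biopython 1.88, and shared stretches of 100 and 31 bases from all GENCODE M21 transcripts on the same strand. Python 3.11.15, numpy 2.4.6, pandas 2.3.3 and matplotlib 3.10.9 were used. The members and lists were chosen with earlier results of these data known. Named genes were the members, the other superfamily genes, the 3 highest of each list and the 3 genes nearest to Akr1b7, and genes named beyond these, the pseudogenes and antisense entries among them, were chosen after their values were seen.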

Additional observations from a re-analysis of the deposited data

How the results depend on the processing

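The count of 7 detected members held with FPKM, the other quantifier, posterior mean TPM, TPM over protein-coding genes, either library alone and a limit of 0.5 TPM, and fell to 6 at 5 TPM, without Akr1c13. The members' mean sum of 1331 TPM became 3974 TPM when scaled over protein-coding genes outside the mitochondrial genome, and in the other quantifier Akr1b7 made up 56.5% of the members and stood at 2.43 times Akr1a1, within 1 SD of 59.6% and 2.89. No member passed 1.5-fold between libraries or between quantifiers under the alternatives tried, except that without a filter on counts 2 did between libraries, Akr1c12 and Akr1c18, whose mean counts were 3.5 and 1. Of 21 alternative values of the members' library ratios 1 changed sign, that of Akr1c13 in the other quantifier, at 0.08. The mean TPM of 3 of 10 members moved by over 1 SD in the other quantifier, Akr1a1 from 277 to 299, Akr1b10 from 70.3 to 62.1 and Akr7a5 from 22.0 to 19.8. Depth limits Akr1c12, Akr1c14 and Akr1c18, and 2 libraries limit every SD. No paired analysis was possible because there was 1 group.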

Other observations

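Enzymes that handle the same kinds of substrate were also measured. Of 17 other carbonyl and aldehyde enzyme genes 15 were detected. Aldh1a1, a retinaldehyde dehydrogenase gene, was at 403 and 331 TPM, Aldh2, the mitochondrial acetaldehyde dehydrogenase gene, at 286 and 316 TPM, and Adh1, an alcohol dehydrogenase gene, at 103 and 291 TPM in replicates 1 and 2. The log2 ratio of Adh1 was 1.48 ± 0.027 (counting SE), and that of Aldh1a1 was -0.30 ± 0.015. All 8 genes of the Nrf2 list, a pathway that responds to oxidants and electrophiles, were detected, led by Hmox1 at 83.2 and 115 TPM, Srxn1 at 59.6 and 49.3 TPM and Nfe2l2, the Nrf2 gene, at 32.5 and 35.8 TPM. In the glucuronate and polyol list 4 of 6 were detected, with Khk, the fructokinase gene, at 24.1 and 27.0 TPM.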
